A study of Mus musculus with 2 samples.

Results

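Liver-enriched transcription factors are the proteins that switch on and maintain the gene programme of the hepatocyte. Members here are the genes Foxa1, Foxa2, Foxa3, Onecut1, Cebpa, Cebpb, Cebpd, Prox1 and Gata4, chosen by symbol as hepatocyte identity factors outside the nuclear receptors. All 9 were found among the 24421 genes counted and all 9 were measured, meaning a mean level of 1 CPM or more (CPM are counts relative to library size) together with 20 or more counts in sum, which held for 11137 genes. The data are RNA-seq read counts from liver of male C57BL/6 mice put on a high-fat diet at 6 weeks of age for 12 weeks. The control library came from RORα f/f mice, in which both Rora alleles are floxed. The other library, labelled LKO for liver-specific knockout, came from RORα f/f:Alb-Cre mice, in which Cre driven by the albumin promoter recombines floxed alleles in hepatocytes and in few other cells of the liver. RORα is a nuclear receptor, and the title names the genes it alters in non-alcoholic steatohepatitis, an inflamed fatty liver, as the subject.

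There was 1 library per genotype, and the labels do not say how many animals gave RNA to each. No difference therefore has a replicate check and no test was made: each ratio compares these 2 libraries, with a 95% exact interval for the error of counting alone. Total counts were 128201591 in the control and 131843686 in the LKO-labelled library. Rora itself had 3701 and 3677 counts, 33.4 and 24.1 CPM, so its total, which includes exons outside the deleted part, was not lost, and every direction refers to the LKO-labelled library, not to loss of RORα. CPM were scaled with edgeR's TMM factors, which hold the bulk of genes level. Scaling by total count would raise every log2 ratio by 0.42, and leaving the 20 most abundant genes out of the totals would add 0.12. The tissue label fitted the markers: Alb was at 117952 and 91007 CPM, and all 10 hepatocyte markers were measured.

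The FOXA proteins are forkhead factors that open compact chromatin at liver enhancers, and they act with HNF4A and ONECUT1 in a network whose members bind one another's promoters. C/EBPα, C/EBPβ and C/EBPδ are leucine zipper proteins that dimerize with each other. C/EBPα is known for metabolic genes and quiescence, and the β and δ forms are known for the acute phase response, adipogenesis and regeneration. PROX1 is a homeodomain protein that mostly represses, among others, transcription driven by RORα, and GATA4 is a zinc finger factor of liver development and of sinusoidal endothelium.

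Of the 9 factors, 4 were at least 1.5-fold higher in the LKO-labelled library with an interval that excluded 1, namely Onecut1, Foxa2, Cebpb and Cebpd. Foxa3 was the 1 factor at least 1.5-fold lower. Among all measured genes 10.5% were higher and 9.76% lower by the same criterion. The median log2 ratio of the 9 factors was 0.57, against −0.00 for all measured genes. Raw counts were larger in the LKO-labelled library for 8 of the 9, Foxa3 being the exception. Most measured genes shared this, since their median log2 ratio with total-count scaling was 0.42. With total-count scaling 6 factors were called higher, adding Foxa1 and Cebpa, and 0 lower, against a background of 34.6% higher and 2.53% lower. At a 2-fold threshold Onecut1 and Foxa2 were higher and no factor was lower, where 3.83% and 2.62% of all measured genes were. Among the 5380 genes that reach a mean CPM of 10, which leave out Onecut1, Cebpd and Foxa3, the background at 1.5-fold was 8.01% higher and 9.03% lower.

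**Figure D1:**
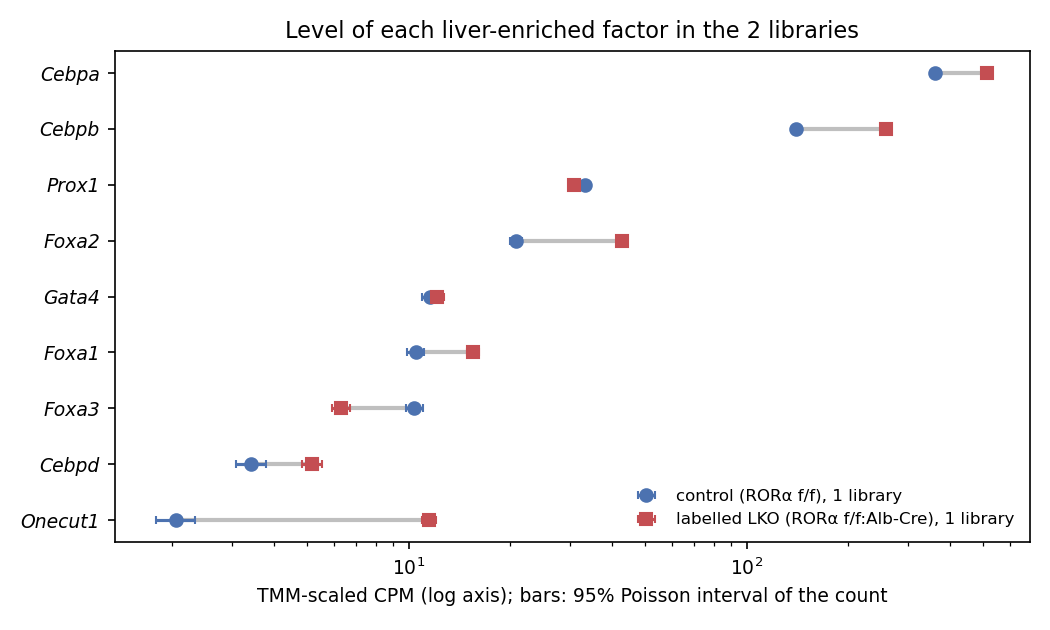
Level of each of the 9 factors, as TMM-scaled CPM on a log axis, in the control library (circles) and the LKO-labelled library (squares). Bars are 95% Poisson intervals of the count. Onecut1 has the widest gap, from 2.05 to 11.5 CPM, and Foxa3 and Prox1 are the 2 genes whose square lies left of the circle.

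**Figure D2:**
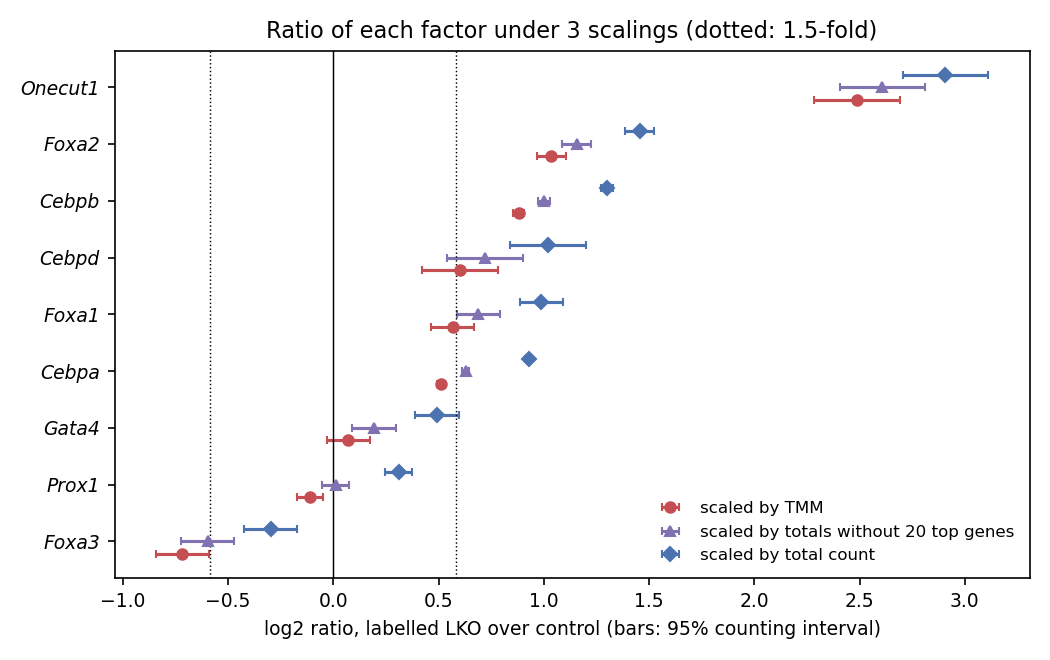
Log2 ratio of each factor, LKO-labelled library over control, under 3 scalings, with 95% counting intervals and dotted lines at 1.5-fold. Onecut1, Foxa2, Cebpb and Cebpd lie right of 1.5-fold under all 3 scalings drawn, and Foxa3 lies left of 0 under all 3.

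Onecut1, also called HNF6, is a cut-homeodomain factor of hepatocyte and bile duct development that also controls glucose and bile acid genes in adult liver. Its gene occupies chr9:74861921-74891781 (mm10, plus strand) and is protein coding. Onecut1 had 227 counts in the control and 1749 in the LKO-labelled library, or 2.05 and 11.5 CPM. This was 5.60-fold (interval 4.88 to 6.46) higher, the largest ratio of the 9. Only 59 of the 11137 measured genes, 0.53%, had a larger ratio. By CPM the gene held rank 9588 in the control and rank 4984 in the other, so the least abundant factor of the control library was a transcript of middle rank in the LKO-labelled library. Its log2 ratio of 2.49 ran from 2.44 to 2.91 over the alternatives tried, removal of a length and GC trend included. Its paralog Onecut2 was at 34.8 and 42.5 CPM, 1.22-fold (interval 1.17 to 1.27) higher and not called, and Onecut3 had 3 and 8 counts.

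Onecut1 is also active in bile duct cells, so their markers were read beside it. Of 9 cholangiocyte markers, 2 were measured, and 0 were higher and 0 lower by 1.5-fold, where 10.5% and 9.76% of all measured genes were. The 2 measured markers had a median log2 ratio of −0.31. That median was 0.11 with total-count scaling. The summed level of all 9 was 57.9 CPM in the control and 45.1 CPM in the LKO-labelled library, most of it from Spp1, which other liver cells share. Among the defining duct markers, Krt7 was at 0.117 and 0.164 CPM, Krt19 at 0.424 and 0.308 CPM and Epcam at 0.316 and 0.380 CPM, and Cftr was at 0 in both libraries. In bulk RNA, more cells of a type and more RNA per cell cannot be told apart.

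The 3 FOXA genes differed in size and direction. Foxa2, a FOXA factor known for fasting metabolism and bile acid balance, lies at chr2:148042877-148046969 (minus strand). It had 2311 counts in the control and 6514 in the LKO-labelled library, or 20.8 and 42.7 CPM. At 2.05-fold (interval 1.95 to 2.15) higher it had the next largest ratio after Onecut1, and 3.54% of measured genes had a larger one. Foxa1, the closest relative of Foxa2 and often redundant with it, lies at chr12:57540628-57546916 (minus strand). It had 1163 and 2371 counts, 10.5 and 15.5 CPM, which is 1.48-fold (interval 1.38 to 1.59) higher and just short of the 1.5-fold line. Foxa3, known for glucose homeostasis during fasting, lies at chr7:19013284-19023538 (minus strand). It had 1151 counts in the control and 963 in the LKO-labelled library, or 10.4 and 6.32 CPM. Foxa3 was thus 1.64-fold (interval 1.51 to 1.79) lower, and 6.42% of measured genes had a smaller ratio. With total-count scaling its log2 ratio was −0.30 and the call was lost, though the sign was kept. The gene starting 839 bases from it on the other strand, Sympk, had a log2 ratio of 0.39. Of the 25 genes listed near Foxa3, Snrpd2, 126184 bases away, was the 1 with a difference in raw counts of like size and sign. It had 1275 and 1094 counts, a log2 ratio of −0.68. By log2 ratio the other neighbours lay on both sides of 0.

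Ratios between genes of a single library do not depend on how the libraries are scaled. Foxa1 and Foxa3 had almost equal counts in the control library, a count ratio of 1.01, and in the LKO-labelled library the ratio was 2.46. This is a 2.44-fold (interval 2.18 to 2.73) difference. The count ratio of Foxa2 to Foxa3 was 2.01 in the control and 6.76 in the LKO-labelled library, a 3.37-fold (interval 3.05 to 3.72) difference. Between Foxa2 and Foxa1 the shift was smaller, from 1.99 to 2.75. Foxa3 accordingly held 24.9% (interval 23.6 to 26.2) of FOXA counts in the control and 9.78% (9.20 to 10.4) in the LKO-labelled library. Foxa2 held 49.97% (48.5 to 51.4) and 66.1% (65.2 to 67.1), while the share of Foxa1 stayed near 25.1% and 24.1%.

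How the authors' counting treated genes with several transcripts bears on shares between genes. RefSeq lists 3 curated transcripts for Foxa2 and 1 each for Foxa1 and Foxa3, so a read of Foxa2 could have been counted up to 3 times. Its counts in both libraries are not multiples of 3, so the division below is an outer case and not a correction. Divided by these numbers, Foxa2 would hold 24.98% and 39.4% of the family, Foxa3 37.3% and 17.5%, and Foxa1 37.7% and 43.1%. The order in the control library therefore depends on the counting, whereas the share of Foxa3 was smaller in the LKO-labelled library on both readings. The summed FOXA level was 41.7 and 64.6 CPM from the deposited counts, a ratio of 1.55, and 27.8 and 36.1 CPM after this division, a ratio of 1.30.

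**Figure D3:**
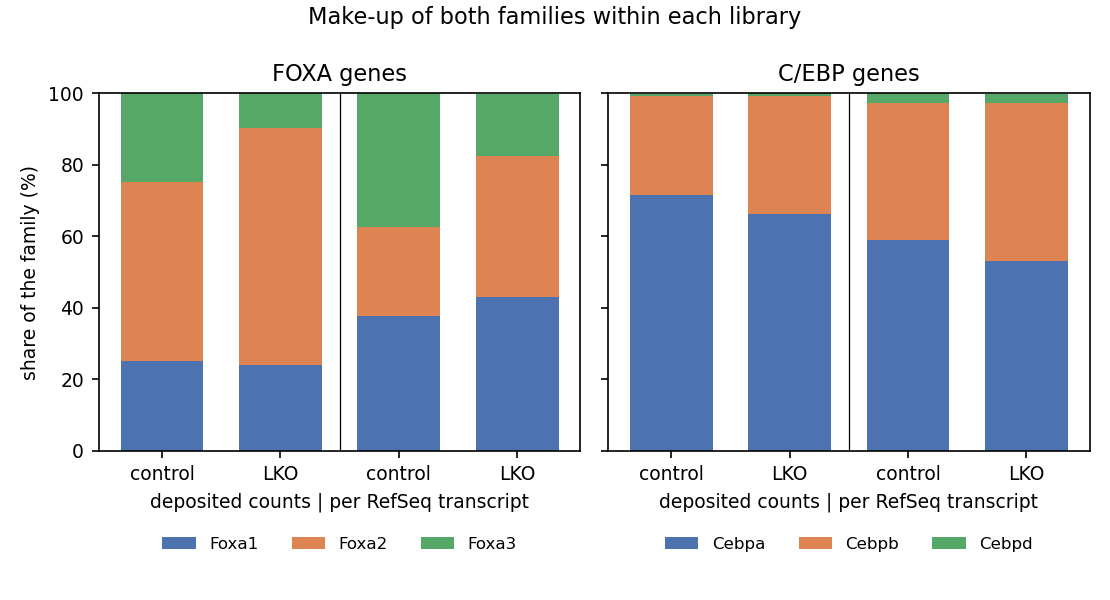
Share of each gene in the summed counts of its family, in percent, for the control library and the LKO-labelled library, from deposited counts (left pair of bars in each panel) and after dividing each count by the number of curated RefSeq transcripts (right pair). The Foxa3 share is smaller in the LKO-labelled library in both pairs, and Cebpa and Cebpb make up nearly all C/EBP counts.

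The C/EBP genes were all higher in the LKO-labelled library, by unequal amounts. Cebpa, an intronless gene, lies at chr7:35119293-35121928 (plus strand). It was the most abundant of the 9, with 40120 counts in the control and 78540 in the LKO-labelled library, or 362 and 515 CPM. At 1.42-fold (interval 1.41 to 1.44) higher it was not called. Its log2 ratio of 0.51 became 0.93 with total-count scaling and 0.28 with a length and GC trend removed, both outside that counting interval. Cebpb, also without introns, lies at chr2:167688915-167690418 (plus strand). It had 15564 and 39411 counts, 140 and 258 CPM, which is 1.84-fold (interval 1.81 to 1.88) higher, and 5.01% of measured genes had a larger ratio. Cebpd, an early responder to inflammatory signals, lies at chr16:15887286-15891031 (plus strand). It had 379 and 790 counts, 3.42 and 5.18 CPM, which is 1.52-fold (interval 1.34 to 1.72) higher and barely past the line. After removal of a trend in the ratios with the length and GC content of transcripts, its log2 ratio was 0.53 and the call was lost.

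Within the family Cebpb made up a larger part of the counts in the LKO-labelled library. There were 0.388 Cebpb counts for each Cebpa count in the control and 0.502 in the LKO-labelled library, a 1.29-fold (interval 1.27 to 1.32) difference. The ratio of Cebpd to Cebpa differed by 1.06-fold with an interval of 0.941 to 1.20, so any shift between them lay within counting error. Cebpa held 71.6% and 66.1% of C/EBP counts, Cebpb 27.8% and 33.2%, and Cebpd 0.676% and 0.665%. The counts of Cebpa were whole multiples of 5 in both libraries and those of Cebpb whole multiples of 3, the numbers of curated RefSeq transcripts of each gene. Among 5955 genes with 1 curated transcript and at least 50 counts in both libraries, both counts were multiples of 5 in 3.96% and of 3 in 11.1%. The shares were little larger among genes with 5 curated transcripts, of which 4.99% had both counts as multiples of 5, and with 3, of which 15.1% had multiples of 3. Most genes with several transcripts thus did not show what Cebpa and Cebpb show. If each read was counted once per transcript, Cebpa had 8024 and 15708 reads and Cebpb 5188 and 13137. Cebpb per Cebpa would then be 0.647 and 0.836, and the ratio between libraries would be unaltered. The interval of Cebpa would widen to 1.39 to 1.46 and that of Cebpb to 1.78 to 1.90.

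Genes on the other strand overlap these 2 loci, and whether the counting used strand is not given. Tmem189 covers 312 of the 1504 exonic bases of Cebpb, or 20.7%. Its counts were 1425 and 3672, beside 15564 and 39411 for Cebpb, and the log2 ratios were 0.91 and 0.88, so the 2 genes differed alike. Without knowing the use of strand, reads of the shared bases cannot be told apart. Spidr covers 562 of the 3746 exonic bases of Cebpd, with 234 and 249 counts and a log2 ratio of −0.37, opposite in sign to Cebpd.

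Myeloid cells and fat cells also use C/EBP factors. Of 9 neutrophil markers 1 was measured, and their summed level was 6.16 and 6.05 CPM, nearly all of it from Csf3r at 5.87 and 5.36 CPM. S100a8 and Camp were at 0 in both libraries, S100a9 had 4 and 24 counts and Elane 0 and 21. Of 8 Kupffer cell and macrophage markers 7 were measured, of which 0 were higher and 6 lower, where 9.76% of all measured genes were lower. With total-count scaling 0 were higher and 1 lower, against 2.53% of genes lower. Their median log2 ratio was −0.84 with TMM and −0.42 with total-count scaling. The summed level of the 8 was 120 CPM in the control and 73.1 CPM in the LKO-labelled library. Clec4f, a defining Kupffer cell gene, was at 16.1 and 8.70 CPM and Timd4 at 5.17 and 2.21 CPM. With TMM scaling these markers thus lay on the other side of 0 from the 3 C/EBP genes. Cd68 changed side with total-count scaling, at a log2 ratio of 0.21. Of 6 adipocyte markers, Plin1, Lep and Retn were at 0 in both libraries, while Adipoq had 0 and 4 counts and Cidea 0 and 38. Cfd, the 1 adipocyte marker measured, was at 12.0 and 21.5 CPM, so the markers that were detected lay on the same side as the C/EBP genes. The part of these cells in the C/EBP levels was not tested.

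Prox1 and Gata4 differed least. Prox1 lies at chr1:190118035-190170714 (minus strand) and had 3699 counts in the control and 4716 in the LKO-labelled library. Its level was 33.4 CPM in the control and 30.9 in the other, 1.08-fold (interval 1.03 to 1.13) lower. Its log2 ratio of −0.11 turned to 0.31 with total-count scaling and to 0.01 with totals without the 20 most abundant genes, so no direction can be given. Gata4 lies at chr14:63198922-63271692 (minus strand) and had 1280 and 1850 counts, 11.5 and 12.1 CPM. Its ratio of 1.05 had an interval of 0.978 to 1.13, and its log2 ratio ran from −0.11 to 0.49 over the alternatives. Against Prox1, Onecut1 was 6.04-fold (interval 5.22 to 7.02) higher in counts whatever the scaling.

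Both genes have other homes in liver, PROX1 in lymphatic endothelium and GATA4 in sinusoidal endothelium and stellate cells. All 10 sinusoidal endothelial markers were measured, with 0 called in either direction, a median log2 ratio of 0.11 and a summed level of 264 and 267 CPM. With total-count scaling 3 were higher and 0 lower, the median being 0.53. Of 10 stellate cell markers, 2 were higher and 0 lower, the median being 0.24 and the summed level 407 and 551 CPM. Total-count scaling gave 5 higher and 0 lower with a median of 0.66. Among all measured genes 10.5% were higher and 9.76% lower with TMM, and 34.6% and 2.53% with total-count scaling. Pdgfrb, a defining stellate gene, was 1.69-fold (interval 1.53 to 1.86) higher and Lrat 1.13-fold (1.02 to 1.26) lower. Of 5 lymphatic markers, 3 were measured, and their summed level was 41.9 and 51.9 CPM. Reln, which is also among the stellate cell markers, had 1996 and 4625 counts, 1.68-fold higher, and makes up the gain in this sum. Ccl21a was at 5.48 and 2.55 CPM and Flt4 at 17.4 and 18.7 CPM, and Mmrn1 had 78 and 46 counts and Pdpn 32 and 8. The part of these cells in the levels of Prox1 and Gata4 was not tested.

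Levels of different genes were compared per kilobase of the longest coding transcript. In the control library the order was Cebpa at 138 CPM per kb, Cebpb at 93.4, Foxa2 at 9.80, Foxa3 at 5.10, Prox1 at 4.22, Gata4 at 3.40, Foxa1 at 3.29, Cebpd at 0.913 and Onecut1 at 0.518. Gata4 and Foxa1 were the only neighbours in this order whose counting intervals overlapped. In the LKO-labelled library, Cebpa at 196 CPM per kb, Cebpb at 172 and Foxa2 at 20.1 kept the top of the order. Foxa1 at 4.87, Prox1 at 3.91, Gata4 at 3.57, Foxa3 at 3.10, Onecut1 at 2.90 and Cebpd at 1.38 followed, and the intervals of Foxa3 and Onecut1 overlapped. Foxa3 thus held the fourth place in the control and the seventh in the LKO-labelled library, where Foxa1 was the fourth. After division by the number of curated transcripts Cebpb led in both libraries, at 31.1 and 57.3 CPM per kb against 27.6 and 39.2 for Cebpa, so which of the 2 is the more abundant depends on the counting. Foxa3 would then be the third in the control and the fifth in the LKO-labelled library, and Foxa2 the fifth in the control and the third in the LKO-labelled library.

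**Figure D4:**
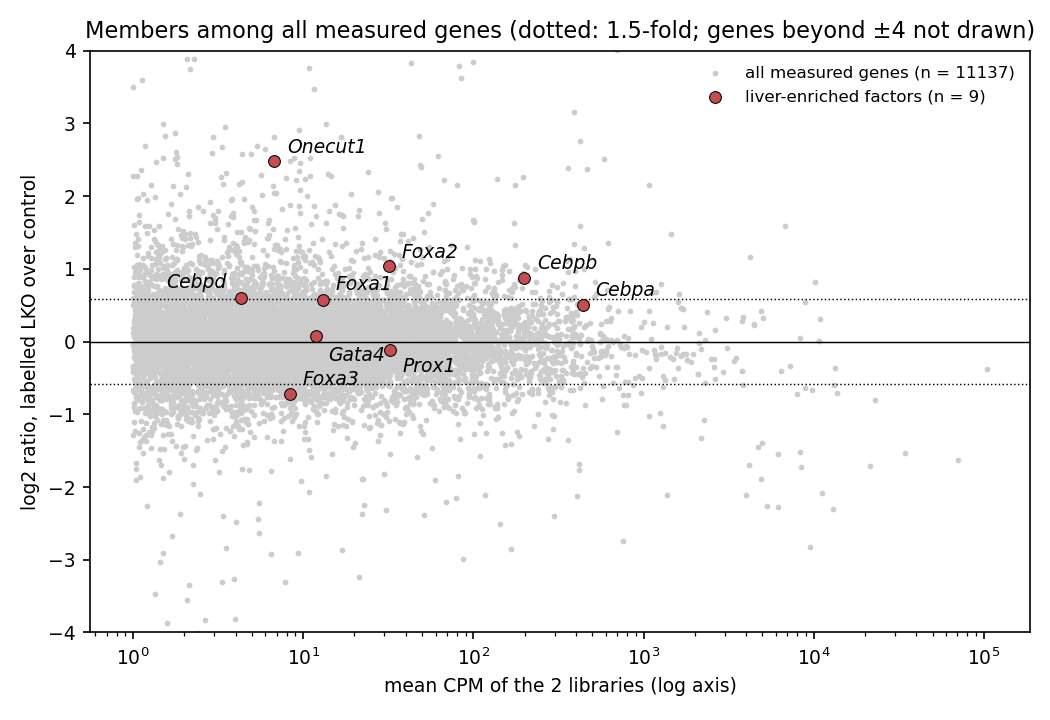
Log2 ratio, LKO-labelled library over control, against mean CPM on a log axis for all 11137 measured genes (grey) and the 9 factors (red), with dotted lines at 1.5-fold. The few genes beyond the ends of the axis are not drawn. Onecut1 lies above nearly all genes of its level, Foxa2 and Cebpb lie at the upper side of the grey band and Foxa3 at the lower side.

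Sequence just before the start of transcription was read for the 7 factors that the RefSeq promoter table (GRCm38.p6, the assembly of mm10) holds, in 10 windows of 250 bases. Shown 5′ to 3′ are the genes at both ends of the range of ratios, Onecut1 and Foxa3, and the most upstream start of Foxa2. Capitals mark a match to a motif searched. The windows are chr9:74861671-74861920 on the plus strand for Onecut1, chr2:148046970-148047219 on the minus strand for Foxa2 and chr7:19023540-19023789 on the minus strand for Foxa3.
Onecut1: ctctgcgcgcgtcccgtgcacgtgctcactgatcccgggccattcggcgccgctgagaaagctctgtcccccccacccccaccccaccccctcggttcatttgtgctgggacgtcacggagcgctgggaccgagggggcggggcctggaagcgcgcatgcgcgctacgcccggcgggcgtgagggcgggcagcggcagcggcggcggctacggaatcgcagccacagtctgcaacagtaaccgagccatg
Foxa2: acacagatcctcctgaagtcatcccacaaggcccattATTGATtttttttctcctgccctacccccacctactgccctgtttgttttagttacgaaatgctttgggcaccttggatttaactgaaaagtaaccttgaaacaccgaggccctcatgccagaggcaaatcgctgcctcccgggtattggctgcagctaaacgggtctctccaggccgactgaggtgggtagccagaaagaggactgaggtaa
Foxa3: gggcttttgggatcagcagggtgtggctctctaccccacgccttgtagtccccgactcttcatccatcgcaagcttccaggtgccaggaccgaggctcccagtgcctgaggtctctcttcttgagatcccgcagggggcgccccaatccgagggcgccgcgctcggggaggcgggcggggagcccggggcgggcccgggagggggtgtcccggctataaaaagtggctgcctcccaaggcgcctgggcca
The motifs were searched as exact letters on both strands, and no 2 matches overlapped. The core of a ROR response element, TAGGTCA or TGGGTCA, was in 0 of the 10 windows, against 5.39% of all 32817 promoter windows. TTGCNNAA, a C/EBP motif, was in 0 of 10, against 9.57%. ATCAAT, an ONECUT motif, was in 1 window, that of Foxa2 shown above, where it reads ATTGAT on the printed strand 213 to 208 bases before the start, against 6.73% of all windows. TGTTTNC, a forkhead motif, was in 1 window each of Foxa1 and Prox1, against 17.8%. The motif of GATA factors, AGATAA, was in 1 other window of Foxa2, against 9.99%. A match is a description of letters and not a binding site.

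Other core hepatocyte factors showed no common direction. Of 10 measured genes of 11 listed, 2 were higher and 2 lower by 1.5-fold, where 10.5% and 9.76% of all measured genes were. The 10 genes had a median log2 ratio of 0.00. Tbx3, a T-box factor of pericentral hepatocytes, was 1.89-fold (interval 1.79 to 1.99) higher, and Gata6, the relative of Gata4, was 1.67-fold (1.48 to 1.88) higher at 3.71 and 6.18 CPM. Hhex, a homeobox gene of early liver, was 1.60-fold (1.55 to 1.65) lower, and Xbp1, the factor of the unfolded protein response, was 1.51-fold lower. Hnf4a, the central nuclear receptor of the network, was at 222 and 191 CPM, a log2 ratio of −0.22 that is 0.20 with total-count scaling.

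A list of dimer partners and controllers of C/EBP proteins, in which Cebpz was also placed, gave 1 higher and 2 lower genes of 8 measured. The median of the 8 was −0.32. For all measured genes the shares were 10.5% higher and 9.76% lower. Trib1, whose product directs C/EBPα to degradation, was 1.61-fold (interval 1.53 to 1.69) higher, a call lost when a length and GC trend is removed. Rfwd2, the ligase COP1 that acts with it, had 7.61 and 5.77 CPM and was not called. Ddit3, which encodes the inhibitory partner CHOP, was 1.68-fold (1.54 to 1.84) lower at 9.59 and 5.70 CPM. The other lower gene of the list, Cebpz, was 1.67-fold lower, and despite its symbol it encodes no dimer partner of C/EBP proteins. Atf5 and Atf4, the most abundant of the list, had log2 ratios of 0.03 and −0.31. Among other forkhead genes 4 of 14 measured were higher and 0 lower, against the same 10.5% and 9.76%, the median being 0.33. Foxq1 was 2.40-fold (2.16 to 2.66) higher, Foxp2 1.62-fold, and Foxo1, the insulin-controlled factor of gluconeogenesis, 1.56-fold (1.48 to 1.65) higher at 17.8 and 27.8 CPM. Foxk1, at 1.52-fold, was the fourth, and Foxk2 had a log2 ratio of −0.49.

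Of 9 PROX1 partners, 0 were called in either direction, where 79.7% of all measured genes lay within 1.5-fold. The log2 ratios of the partners ran from −0.47, that of Rora, to 0.41, with a median of −0.22. Hdac3, the deacetylase of corepressor complexes, had the largest ratio of the list, 24.8 and 33.1 CPM or 1.33-fold (interval 1.27 to 1.40) higher. Of the GATA family and its FOG cofactors only Gata6 and Zfpm1 were measured among 7 listed, and Zfpm1 was at 50.9 and 35.4 CPM. Regulators of sex-biased liver genes, a programme in which HNF6 takes part downstream of growth hormone, gave 3 higher and 1 lower of 5 measured. The shares among all measured genes were 10.5% and 9.76%. Tox was 5.09-fold (4.54 to 5.72) higher at 3.09 and 15.7 CPM, Stat5a 1.75-fold and Trim24 1.62-fold higher, and Stat5b had a log2 ratio of 0.34. Bcl6, a repressor with male-biased expression, was 5.16-fold (4.82 to 5.52) lower at 37.2 and 7.21 CPM. Cux2, known as a female-specific factor, was not measured, with 11 and 22 counts.

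**Figure D5:**
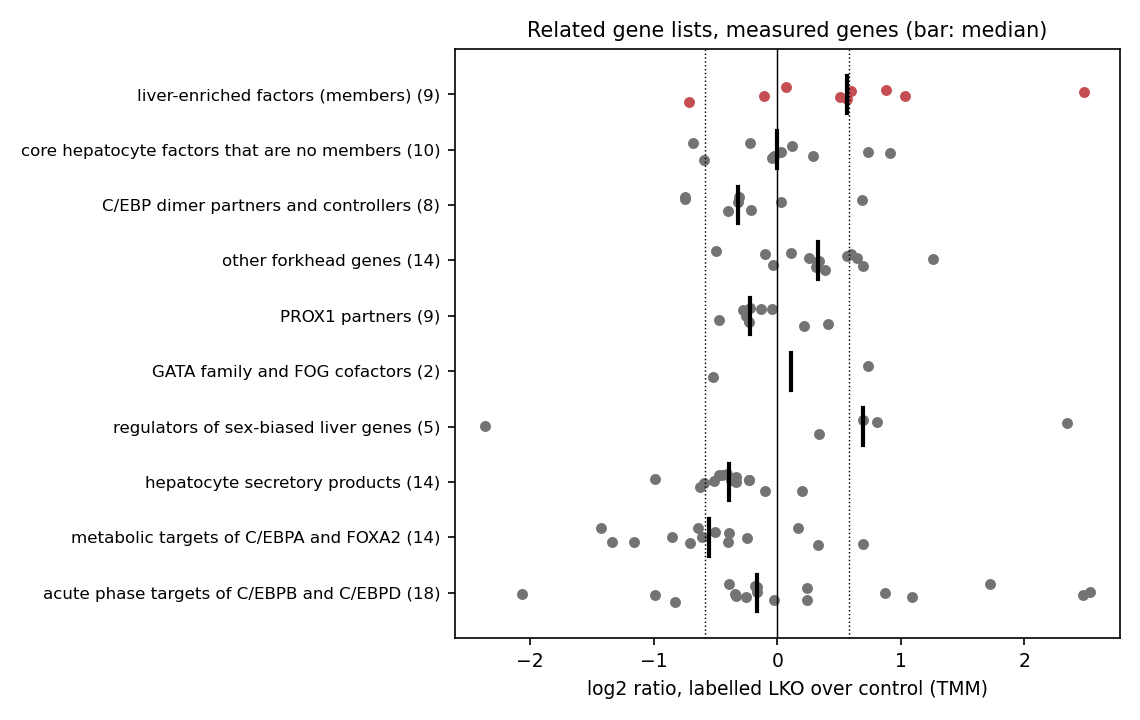
Log2 ratios, LKO-labelled library over control, of the 9 factors (red) and of the measured genes of 9 related lists (grey, number in brackets). Black bars are medians, at 0.57 for the 9 factors, −0.39 for hepatocyte secretory products and −0.56 for metabolic targets.

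Lists of genes that these factors are known to activate had medians below 0 with TMM scaling, whereas that of the 9 factors was above it, but the signs of 2 of these 3 medians turn with total-count scaling. Of 14 hepatocyte secretory products, 0 were called higher and 3 lower, where 10.5% and 9.76% of all measured genes were. The median of the 14 products was −0.39 with TMM and 0.03 with total-count scaling. The other 2 lower genes, Vtn (vitronectin) and Ahsg (fetuin A), were 1.54-fold and 1.51-fold lower, and Apob had the largest ratio, 1.15. Ttr, a classical FOXA target, was at 8061 and 6405 CPM, and Hpx, the heme scavenger gene, was 1.98-fold lower. Among 14 metabolic genes known as targets of C/EBPα or FOXA2, 1 was higher and 7 lower with TMM. For all measured genes the shares were 10.5% and 9.76%. The median of the 14 metabolic genes was −0.56 with TMM and −0.14 with total-count scaling. Sds, G6pc and Tat, of serine breakdown, glucose release and tyrosine breakdown, were 2.69-fold, 2.53-fold and 2.24-fold lower. Igfbp1, a FOXA2 and FOXO1 target that binds insulin-like growth factors, was 1.62-fold (1.58 to 1.66) higher at 89.1 and 144 CPM. Slc10a1, the bile acid importer gene, had a log2 ratio of 0.33 and was not called. With total-count scaling 3 of these 14 were higher and 3 lower, against 34.6% and 2.53% of all measured genes.

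Acute phase genes known as targets of C/EBPβ and C/EBPδ split. Of 18 measured, 5 were higher and 3 lower, where 10.5% and 9.76% of all measured genes were. The median of the 18 was −0.16 with TMM and 0.26 with total-count scaling. Lcn2, which binds bacterial siderophores, had 2.62 and 15.1 CPM and was 5.78-fold (interval 5.11 to 6.55) higher. Il1rn, the interleukin 1 receptor antagonist gene, was 5.58-fold higher, and the serum amyloid A gene Saa2 was 3.30-fold higher. Saa1 and Orm2 were the others, and Saa and Orm copies are close enough for reads to be split between them. Orm3, Hpx and Itih3 were lower, by 4.18-fold, 1.98-fold and 1.78-fold. The fibrinogen gene Fga and Itih4, the most abundant of those not yet named, had log2 ratios of −0.16 and 0.24. The members more abundant than Crp in both libraries stayed within 1.5-fold, apart from Hpx and Itih3.

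The measured genes most like each of the 3 factors with the largest ratios were sought by log2 ratio, among genes of a similar mean CPM. With 2 libraries this likeness is a match of 2 values only. Nearest to Onecut1 among 1246 genes were Il1rn (log2 ratio 2.48), the perilipin gene Plin4 (2.64) and the receptor gene Tnfrsf19 (2.30). Nearest to Foxa2 among 798 genes were the receptor gene Erbb3 (1.01), the read-through ChkbCpt1b entry (1.06) and the phosphatidylcholine transfer gene Pctp (0.97). Nearest to Cebpb among 216 genes were the retinol saturase gene Retsat (0.84), the fatty acid receptor gene Ppara (0.81) and the glutathione transferase gene Gstm3 (0.95).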

How the data were processed

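Each of the 2 libraries has a table of raw read counts per gene symbol, as deposited by the authors and not normalized. TopHat, edgeR and build mm10 are named without roles, per the submitters' processing notes. How reads were assigned to genes, with which annotation, with or without strand, and once or several times, was not given in the sources used here. Per the labels' protocols, libraries were made from Trizol RNA with a LEXOGEN mRNA-Seq kit.

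CPM were computed as counts over the total count times a TMM factor (edgeR 4.0.16, R 4.3.3), which was 0.865 for the control and 1.16 for the other library. A ratio of CPM had a 95% Clopper-Pearson interval conditional on the summed count. Count ratios between 2 genes had an exact conditional odds ratio interval, or a normal approximation where a count was 10000 or more. Intervals cover counting error only, and they are too narrow even for that if PCR copies of a molecule were counted. With 1 library per group no test was made. The procedure was tested on simulated counts, which cannot stand in for replicate libraries.

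Coordinates and transcripts are from GENCODE M21, promoters and transcript numbers from RefSeq. The 9 genes and all lists were chosen with earlier results of these data known. A few listed items are not reported here and enter no list value. Named were all 9 genes, Rora, the measured genes of each list with the 3 highest and 3 lowest ratios and the 2 largest levels, and the nearest genes by ratio. Of the marker lists and of the genes not called, not every gene that this rule picks is printed. Ttr, Saa1, Orm2, Crp, Foxk1, Onecut3, Cux2, Sympk, Snrpd2, Tmem189, Spidr and markers under 1 CPM fall outside this rule and were chosen after their values were seen. Alternatives were other scalings (median of ratios from DESeq2 1.42.0 among them), filters, fold thresholds, an added count of 0.5, halved counts and removal of a length and GC trend. Division by transcript number was added after seeing the data.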

Additional observations from a re-analysis of the deposited data

How the results depend on the processing

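No paired analysis was possible because there was 1 library per group. The median log2 ratio of the 9 factors was 0.57 and became 0.99 with total-count scaling and 0.69 with totals without the 20 most abundant genes. The median of all measured genes moved alike, from −0.00 with TMM to 0.42 with total-count scaling. The number at least 1.5-fold higher, 4, was 2 at a mean CPM of at least 10, where Onecut1, Cebpd and Foxa3 are not measured, and 2 at a threshold of 2-fold. The 1 factor lower, Foxa3, became 0 with total-count scaling, at a mean CPM of at least 10 and at 2-fold. The other alternatives, halved counts and division by transcript number included, gave 3 to 6 higher and 1 lower. Of the 32 recomputed counts and medians of the 9 factors, 25 stayed close, medians within counting error and counts within 1.5 times. A change from 4 to 6 factors called higher is among these. The number 25 is no measure of robustness, since several alternatives could hardly alter a value. All 9 factors pass the main filter, and median of ratios and upper quartile shift every log2 ratio by only −0.0008 and −0.01 against TMM. With total-count scaling, all measured genes split into 3866 higher and 282 lower, against 1169 and 1087. The lists then gave 3 higher and 0 lower other core factors (2 and 2 with TMM), 1 and 0 C/EBP partners (1 and 2), 10 and 0 other forkhead genes (4 and 0), 2 and 0 PROX1 partners (0 and 0), 1 and 0 secretory products (0 and 3), 3 and 3 metabolic targets (1 and 7), and 7 and 1 acute phase genes (5 and 3). With the length and GC trend removed, C/EBP partners gave 0 higher and 1 lower, other forkhead genes 2 and 1, the GATA family 1 and 1, metabolic targets 1 and 5, secretory products 0 and 2, and the acute phase median was 0.05. Depth limits Onecut1 in the control library most, at 227 counts.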

Other observations

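A few related genes lay under the level needed to be measured and were chosen after their values were seen. Foxm1, a forkhead gene of dividing cells, had 35 counts in the control and 150 in the LKO-labelled library, a ratio of 3.12 (interval 2.14 to 4.64). Cebpe, the granulocyte member of the C/EBP family, had 82 and 177 counts, a ratio of 1.57 (1.20 to 2.06). Gata3 had 47 and 28 counts, a ratio of 0.433 (0.261 to 0.706). Tspan8, a bile duct marker, had 69 and 9 counts, a ratio of 0.0948 (0.0416 to 0.191), while Krt19 had 47 in both.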
